A study of Danio rerio with 43 samples.

Results

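The break repair and Fanconi genes described here are 36 zebrafish genes of homologous recombination, the Fanconi pathway and DNA end joining, picked by gene symbol, with a rule that holds no measured value. Of the 36 genes, 35 had a row in the deposited count table of 31877 genes, and 24372 genes of the table had at least 1 count. The gene fanca had no row and is not analysed here, and mre11a carries the symbol MRE11 in the name table that was used. The study measured polyadenylated RNA of pooled whole embryos by QuantSeq, which reads the 3′ end of each transcript, in 43 libraries from 6 stages. The wild type was the Tab5 strain, and the mutants were of that strain and homozygous for the rif1 allele omf201 (rif1 omf201/omf201). The stages were the 1-cell zygote at 0 to 0.5 hours post fertilization (hpf), the 256-cell blastula at 2 to 2.5 hpf, dome at 4 to 4.5 hpf, shield at 6 hpf, bud at 10 hpf and the prim-5 embryo at 24 hpf. Wild type had 4 libraries at each stage except the 256-cell and shield stages, which had 3 each, and the mutant had 4 at shield, bud and 24 hpf and 3 at each of the earlier stages. The labels do not say whether the mothers were mutant, and they do not tie libraries to separate clutches, so every p-value below measures the spread between these libraries only.

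A double-strand break can be repaired in several ways. In classical end joining, the Ku70-Ku80 dimer holds the ends and ligase IV seals them with little processing. In homologous recombination, nucleases trim the ends to single strands, and a protein filament built on them with the help of BRCA2 lets the sequence be copied from a sister chromatid, while the Fanconi pathway unhooks crosslinks between strands and hands the resulting break to recombination. RIF1 acts in mammalian cells with 53BP1 to shield ends from trimming, and it is also known for its part in replication timing. Early fish embryos run their first divisions on RNA laid down in the egg, and most of that RNA is replaced after the genome is switched on near the blastula stages. Gene roles given below are those known from the mammalian proteins.

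The total count per library lay between 5211421 and 14143931, with a median of 7606729. The mutated gene itself was counted 587 to 2305 times per wild-type library and 15 to 139 times per mutant library. At the 1-cell stage alone it was counted 630 to 1540 times per wild-type library and 38 to 54 times per mutant library. The genotype of the mothers was not tested. Stage labels were set against marker genes, with levels as CPM, the usual share of a library's scaled total count. The summed level of 5 early zygotic genes was at most 0.529 CPM in the 1-cell wild types and 654 to 824 CPM at dome. Dome mutants overlapped at 763 to 884 CPM, with tbx16 lower (means of 318 CPM in wild type and 224 CPM in mutants) and klf17 higher (52.6 and 100 CPM). The sums of 4 gastrula markers overlapped at dome and shield and were apart at bud, at 830 to 936 CPM in wild type and 707 to 777 CPM in mutants. At dome the 4 maternal markers with a row summed to 583 to 908 CPM in wild type and 371 to 395 CPM in mutants, and the 7 markers of cycling cells to 1488 to 1762 CPM and 1987 to 2298 CPM. At shield the same sums were 169 to 173 CPM against 70.5 to 103 CPM for maternal markers, and 2920.3 to 2987 CPM against 3544 to 3924 CPM for cycling markers. One cycling marker, ccna2, had 0 counts in every library. At the 1-cell stage the cycling markers summed to 1362 to 1858 CPM in wild type and 995 to 1305 CPM in mutants. Among them top2a had a mean of 911 CPM in wild type and 568 CPM in mutants, pcna of 465 and 471 CPM, and rrm1 of 99.2 and 131 CPM. The cycling sums were also apart at 256-cell, at 986 to 1110 CPM against 1150.1 to 1192 CPM, and at bud, at 2559 to 2890 CPM against 2943 to 3739 CPM. They overlapped at 24 hpf, at 3132 to 3605 CPM and 3259 to 3703 CPM. Most of the shield and bud sums was pcna, at means of 2539 and 3255 CPM (wild type, then mutants) and of 2249 and 2727 CPM. At shield cdk1 was also higher in mutants (71.6 and 108 CPM), but rrm1 (236 and 200 CPM) and mki67 (6.97 and 2.07 CPM) were lower. At bud rrm1 was higher in mutants (211 and 271 CPM), but cdk1 (162 and 125 CPM) and mki67 (3.08 and 1.34 CPM) were lower. The maternal sums overlapped at the 4 stages other than dome and shield. The part of these shifts in the mutant differences below was not tested. CPM carry 1 scaling over all libraries, and log2 differences come from the quasi-likelihood test of edgeR, with p-values adjusted by Benjamini-Hochberg over all genes tested in a comparison. A difference is called changed at an adjusted p under 0.05. Where groups are said not to overlap, this describes the libraries and is no test, since the share over all genes is not given here. In pooled embryos, fewer cells of a type and less RNA per cell cannot be told apart.

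Most of these genes were at their highest in the first hours. In wild type, 25 of 35 members had their highest stage mean at the 1-cell or 256-cell stage, 5 at dome, 0 at shield, 1 at bud and 4 at 24 hpf. The summed level of the 35 genes was 839 to 877 CPM at the 1-cell stage, 1158 to 1171 CPM at the 256-cell stage, 713 to 839 CPM at dome, 393 to 439 CPM at shield, 455 to 529 CPM at bud and 467 to 529 CPM at 24 hpf. The lowest 256-cell library thus lay above every library of any other stage in wild type, and the shield libraries were the lowest. Between the 256-cell and shield stages, 30 of 35 genes had a lower mean, and 7 were higher at 24 hpf than at the 1-cell stage. The shares of all genes with such peaks or changes of mean are not given here. The latest peaks, at 24 hpf, were those of fancd2, rad51d, tp53bp1 and xrcc6. From lowest to highest stage mean, tp53bp1 spanned 20.6-fold and xrcc6 only 1.71-fold. In mutants, 24 of 35 genes peaked at the same stage as in wild type.

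**Figure D1:**
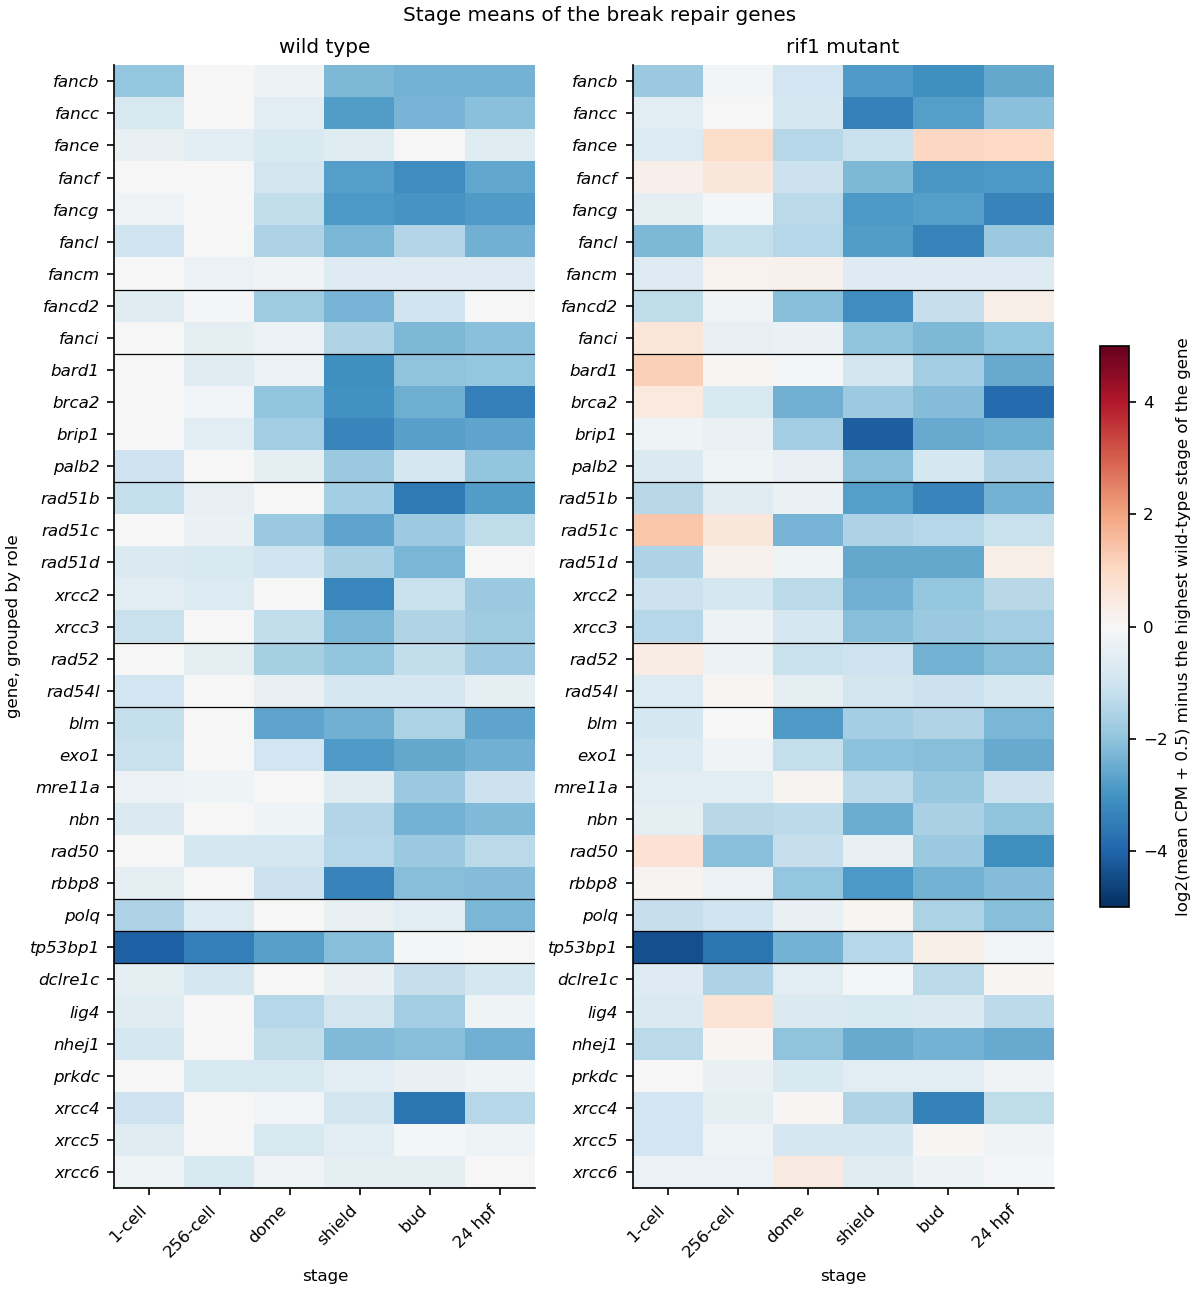
Stage means of the 35 genes in wild type (left) and mutants (right), as log2(mean CPM + 0.5) minus the highest wild-type stage of the same gene, so that white is the wild-type peak, blue lower and red higher; black lines separate the roles. In wild type the pale cells of most rows lie at the first 2 columns, while tp53bp1 runs the other way.

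**Figure D2:**
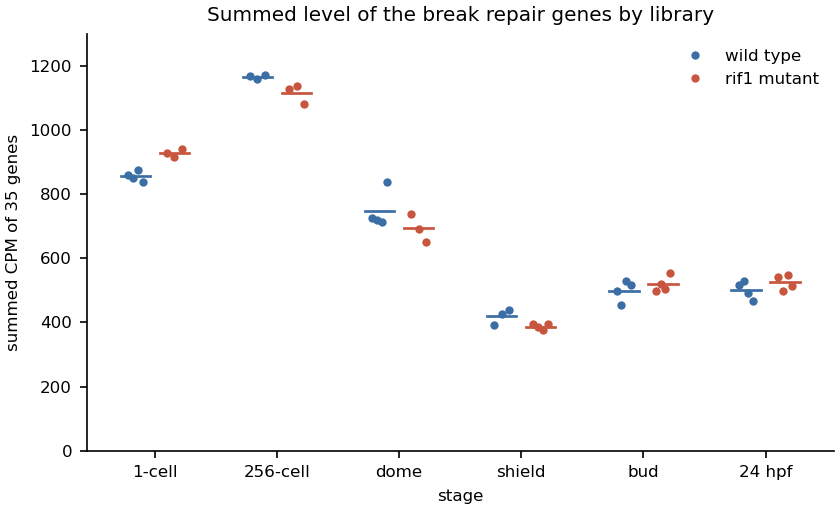
Summed CPM of the 35 genes (vertical axis, from 0) by stage (horizontal axis), with 1 point per library and a bar at the group mean. The sum is highest at the 256-cell stage and lowest at shield in both genotypes.

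From the 1-cell to the 256-cell stage in wild type, 13 of 33 tested members rose and 2 fell, where 24.1% of all genes tested rose and 25.1% fell. Their median log2 change was 0.51, beside -0.02 over all genes. In this and the later steps levels are shares of polyadenylated RNA. A rise or fall in share need not be one in the amount of RNA per embryo, and which of these changed was not tested. From the 256-cell stage to dome, 15 of 33 fell and 2 rose, where 20.9% of all genes fell and 22.5% rose, with a median of -0.46 beside 0.01. From dome to shield, 15 of 33 fell and none rose, where 26.8% of all genes fell and 26.1% rose, and the medians were -0.81 and -0.11. In that step 16 members had an unadjusted p under 0.05, beside 58.0% of all genes, and DESeq2 called 16. From shield to bud, 4 of 29 rose and 3 fell, where 26.3% of all genes rose and 24.2% fell. From bud to 24 hpf, 4 of 28 rose and 3 fell, where 34.4% and 25.7% of all genes did. Scaling by library totals moved the median of all genes by 0.12, -0.17, -0.47, -0.11 and -0.21 in these 5 steps. With that scaling the member counts from dome to shield were 0 risen and 22 fallen, those from 256-cell to dome 0 and 15, and those from bud to 24 hpf 3 and 7. The shares of all genes called with that scaling are not given here, so these counts cannot be read as a trait of the members.

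Between mutant and wild type few of these genes differed. Over the 6 stages, 9 of 187 tests of a member at a stage passed, or 4.81%, while 10.8% of all 68772 gene-by-stage tests did. At the 1-cell stage 3 of 33 members were called (rad51c and rbbp8 higher, fancl lower), where 10.2% of all genes were. At the 256-cell stage 3 of 33 were called (rad51c higher, fancl and nbn lower) beside 13.5% of all genes, and at dome 2 of 33 (xrcc6 higher, nhej1 lower) beside 17%. At shield edgeR called 0 of 31 beside 9.76% of all genes, and DESeq2 called 0. There 5 members had an unadjusted p under 0.05, beside 22.5% of all genes. At bud edgeR called 0 of 28 beside 5.51%, and DESeq2 called 1. There 2 members had an unadjusted p under 0.05, beside 17.96% of all genes. At 24 hpf 1 of 29 was called (dclre1c higher) beside 8.63% of all genes. At each stage the members' share was below that of all genes, though at 1-cell the 2 were close (9.09% beside 10.2%). These shares were not matched for count level, and whether the members differ from all genes as a set was not tested. In all, 7 members were called at least once, 2 of them at a pair of stages, and 27 of the 34 members tested at any stage never.

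The members' median log2 difference was 0.11 at the 1-cell stage, -0.11 at 256-cell, -0.12 at dome, -0.04 at shield, 0.03 at bud and 0.07 at 24 hpf, beside 0.02, -0.0021, -0.03, 0.0025, -0.0052 and -0.0062 over all genes. What these libraries could resolve varied with the stage. The median 95% confidence interval of a member reached 0.56 to either side of its log2 difference at the 1-cell stage, 0.46 at 256-cell, 0.80 at dome, 1.12 at shield, 0.81 at bud and 0.63 at 24 hpf. The interval of 16, 17, 12, 5, 12 and 18 members at these stages lay wholly between -1 and 1, a 2-fold change to either side. Tested were 33, 33, 33, 31, 28 and 29 members. At 1-cell, dome, shield and bud most tested members were thus not bounded that closely, with the fewest bounded at shield. A missing call there does not show that the genotypes were alike. A joint fit of all 12 groups kept only the rad51c call at the 1-cell stage among the 9. It called rad51b and bard1 at shield and fancl at bud in their place. At dome, 21 members fell from the 256-cell to the shield stage in wild type and 16 of them (76.2%) were lower in mutants, where 73.0% of all genes that fell across these stages were. At shield 9 of 14 members that fell from dome to bud (64.3%) were lower, beside 67.6% of all such genes. At the 256-cell stage 6 of 7 members that rose from 1-cell to dome (85.7%) were lower in mutants and 4 of 8 that fell (50%), beside 56.1% and 45.6% of all such genes.

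**Figure D3:**
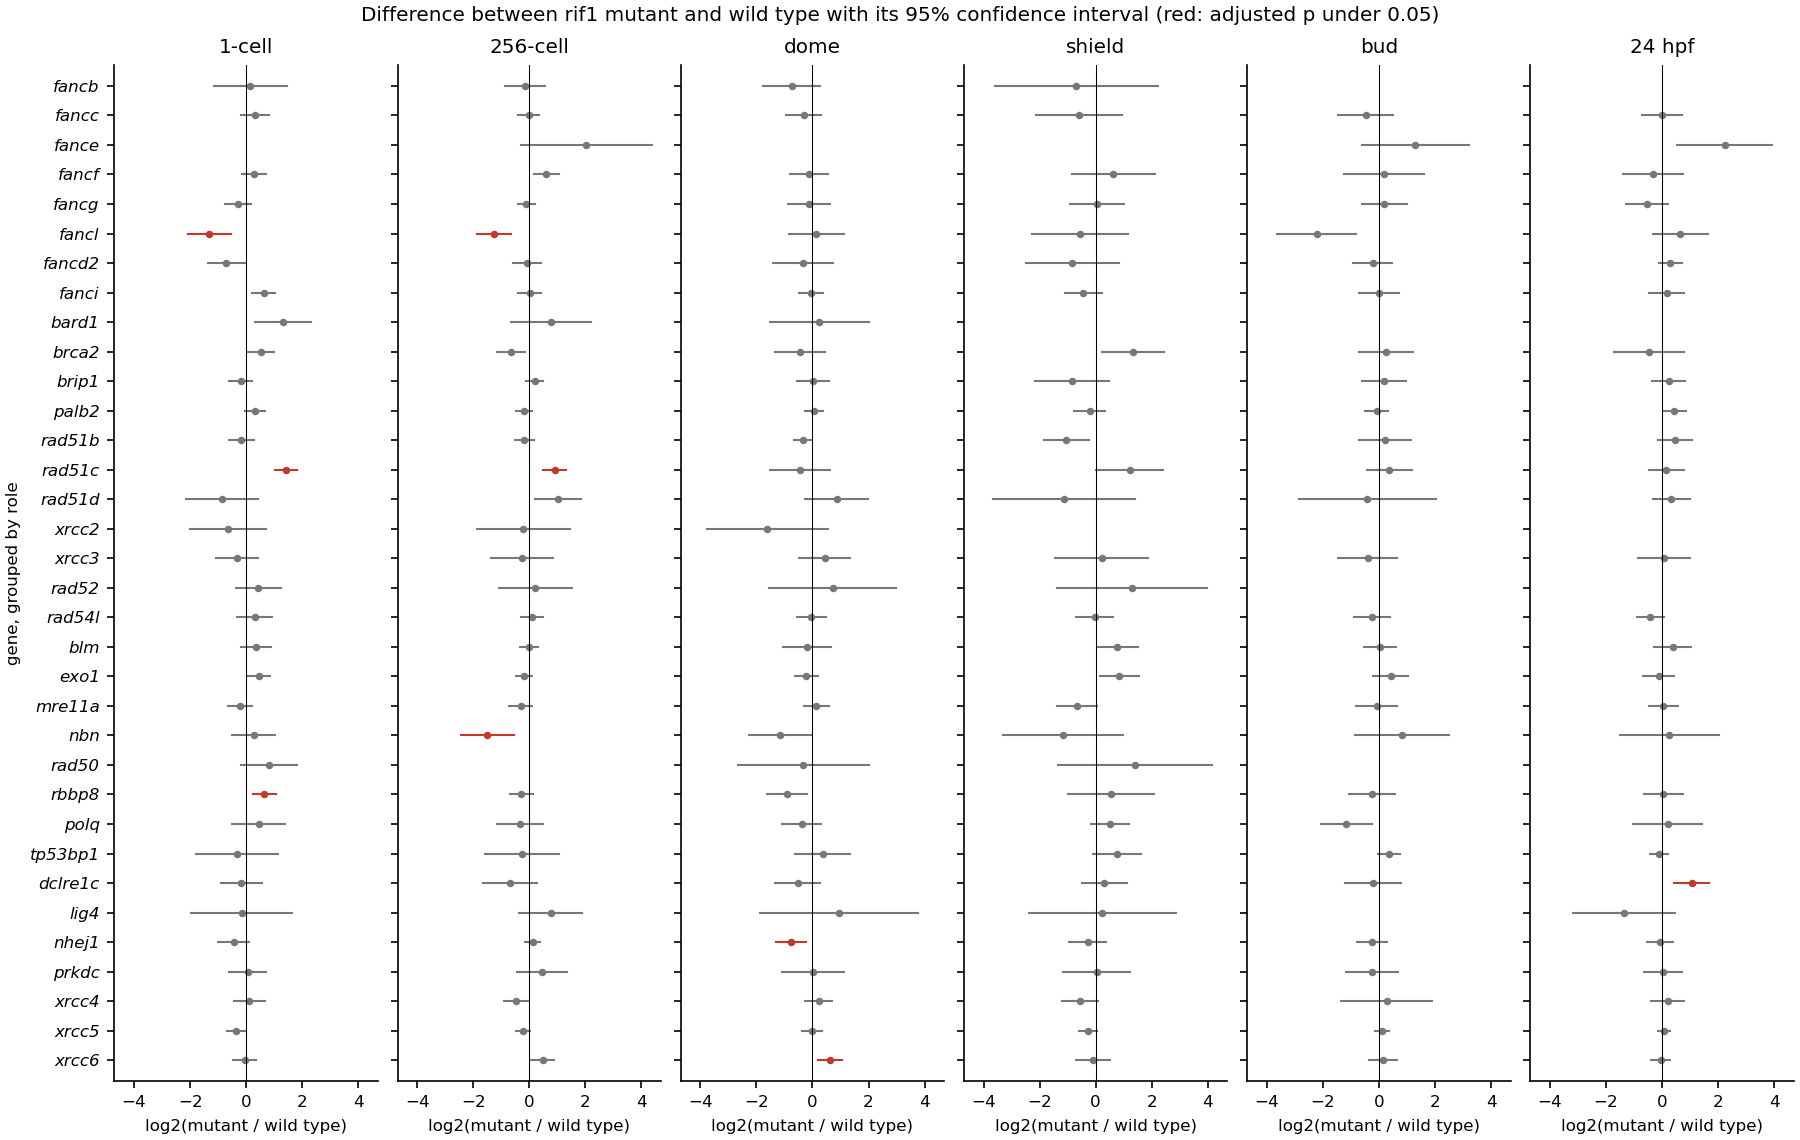
Log2 difference between mutant and wild type (horizontal axis, to the right higher in mutants) with its 95% confidence interval, for each tested member (vertical axis, grouped by role) and each stage (panel); red marks an adjusted p under 0.05. The 9 red points include rad51c and fancl at the first 2 stages, and the intervals are widest at shield.

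Among the genes of the Fanconi core complex, which ubiquitinates FANCD2 and FANCI at a stalled fork, the gene of the catalytic subunit was lower in mutants at the first 2 stages. At the 1-cell stage fancl, the ubiquitin ligase of the complex, was at 13.3, 12.5, 7.64 and 8.82 CPM in the wild types and 3.14, 4.72 and 4.596 CPM in the mutants. At the 256-cell stage it was at 17.5, 22.8 and 24.9 CPM against 6.89, 8.27 and 12.3 CPM. The groups did not overlap at either stage. The log2 difference was -1.32 (SE 0.36, adjusted p = 0.0314, edgeR) at the 1-cell stage and -1.26 (SE 0.30, adjusted p = 0.00517, edgeR) at the 256-cell stage. The 1-cell call was lost without wild-type replicate 1, 2 or 4 or mutant replicate 1, with a log2 difference of -1.45 to -1.15 and an adjusted p of up to 0.122 when 1 library was left out. It was also lost in the joint fit and with the replicate number as a block. The 256-cell call held without any 1 library, with an adjusted p of 0.00318 to 0.0410, and the joint fit of all groups gave 0.308.

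At dome fancl was at 7.14 ± 1.32 CPM (SD, n = 4) in wild type and 7.80 ± 3.92 CPM (SD, n = 3) in mutants. At bud it was at 10.4, 3.503, 8.33 and 8.15 CPM in wild type and 0.461, 4.48, 0.565 and 1.17 CPM in mutants, so that 1 library of each group crossed over. The bud difference of -2.22 (SE 0.68) had an adjusted p of 0.0597 in edgeR and 0.0182 in DESeq2. At 24 hpf the means were 3.67 ± 1.76 CPM (SD, n = 4) and 5.70 ± 1.59 CPM (SD, n = 4), with no call.

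Several core genes fell in wild type after the 256-cell stage. The gene of FANCB, a scaffold of the complex, was at 1.27, 3.64, 3.003 and 2.01 CPM in the 1-cell wild types and 9.84, 14.1 and 9.17 CPM at the 256-cell stage. It rose 4.47-fold (log2 2.16, SE 0.42, adjusted p = 0.000289, edgeR). All 3 of the later libraries lay above all 4 of the earlier ones. The subunit genes fancc, fancf, fancg and fancl each fell from the 256-cell stage to dome, by 0.58, 0.92, 1.23 and 1.61 on the log2 scale. From dome to shield fancb, fancc, fancf and fancg each fell, by 2.22, 2.29, 1.93 and 1.69. No core gene changed from shield to bud or from bud to 24 hpf in the fits that tested them. The lowest of these genes limit what can be said. The gene fance, which links the core to FANCD2, stayed at or under 1.21 CPM as a stage mean in wild type, and fancm, the translocase that recruits the core, had no test at any stage.

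At 24 hpf fance was at 0.703, 0.457, 0.575 and 0.690 CPM in wild type and 2.91, 3.41, 2.67 and 2.60 CPM in mutants. These groups did not overlap, and the log2 difference of 2.24 (SE 0.83) had an adjusted p of 0.0954 in edgeR and 0.0159 in DESeq2. At 256-cell it was at 0.268, 0 and 1.68 CPM against 2.30, 3.33 and 2.42 CPM, with an edgeR adjusted p of 0.273. At both stages the gene passed the filter on low counts only because its mutant libraries did, so these p-values add no support.

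The FANCD2-FANCI pair, clamped on DNA once ubiquitinated, had unlike courses. In wild type fanci went from 57.5 ± 14.1 CPM (SD, n = 4) at the 1-cell stage to 13.1 ± 5.12 CPM (SD, n = 4) at 24 hpf, with a fall from dome to shield of 1.21 on the log2 scale (SE 0.24, adjusted p = 0.000424, edgeR). By contrast fancd2 was at 7.46, 4.56 and 2.17 CPM at shield, 12.9, 10.99, 19.4 and 8.15 CPM at bud and 19.96, 24.2, 32.3 and 27.0 CPM at 24 hpf. Each step was a rise, of 1.38 (SE 0.49, adjusted p = 0.0237, edgeR) and of 0.97 (SE 0.28, adjusted p = 0.0064, edgeR). The first of these calls was lost without wild-type shield replicate 3 or 4 or bud replicate 1 or 3, with an adjusted p of up to 0.110 and a log2 change of 1.03 to 1.85. In the 1-cell mutants fanci was at 99.5, 75.6 and 85.6 CPM against 65.8, 46.7, 73.1 and 44.5 CPM in wild type, and fancd2 at 7.50, 15.8 and 7.59 CPM against 17.7, 15.5, 14.4 and 20.7 CPM. The fanci groups did not overlap and the fancd2 groups overlapped by 1 mutant library. The log2 differences were 0.62 and -0.70, with edgeR adjusted p of 0.0604 and 0.164, and DESeq2 gave 0.0366 for fanci.

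In the group around BRCA2, which acts on the trimmed single strands, none of the 4 members was called between genotypes at any stage by DESeq2 or by the edgeR fit of each stage. Other edgeR fits called brca2 at 256-cell (adjusted p = 0.0324 without a filter) and bard1 at 1-cell (0.0448 without a filter, 0.0446 with the replicate number as a block) and at shield (0.0191 in the joint fit). An unadjusted p under 0.05 was reached by brca2 at 3 stages and by bard1 and palb2 at 1 stage each. Over all genes tested, between 17.96% (bud) and 29.4% (dome) reached it at a stage, so it does not set these genes apart. A change of the mutant difference of brca2 between the first 2 stages was called in the planned fit. The gene was at 32.3, 39.8, 58.5 and 39.8 CPM in the 1-cell wild types and 70.3, 44.0 and 66.1 CPM in the mutants, and at the 256-cell stage at 31.6, 43.6 and 41.5 CPM against 27.2, 32.6 and 14.6 CPM. Mutants were thus on the high side at the first stage and on the low side at the second, and the groups overlapped at both. The mutant difference moved by -1.16 on the log2 scale between these stages (SE 0.36, adjusted p = 0.0498, edgeR interaction term), from 0.52 to -0.65. This call lay at the threshold: leaving out 1 library gave -1.41 to -0.91 with an adjusted p of up to 0.134, and it was lost without wild-type 1-cell replicate 1, 2 or 4, mutant 1-cell replicate 1 or 3, wild-type 256-cell replicate 2 or 3, or mutant 256-cell replicate 1 or 3. It was also lost by library-total scaling, in the joint fit and with the replicate number as a block. At shield brca2 was at 5.31, 7.90 and 1.16 CPM in wild type and 9.69, 9.84, 13.2 and 14.0 CPM in mutants, which did not overlap, with an edgeR adjusted p of 0.132.

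In wild type brca2 fell from the 256-cell stage to dome by 1.88 on the log2 scale (SE 0.27, adjusted p = 4.07e-06, edgeR), from 38.9 ± 6.43 CPM (SD, n = 3) to 10.6 ± 2.92 CPM (SD, n = 4). The gene of its partner PALB2, which bridges BRCA1 and BRCA2, kept a higher level: 80.0, 94.5 and 98.5 CPM at the 256-cell stage, 63.4, 66.1, 66.0 and 68.4 CPM at dome, 23.2, 22.2 and 28.8 CPM at shield, 60.4, 31.5, 64.1 and 49.2 CPM at bud and 24.7, 21.8, 26.0 and 19.04 CPM at 24 hpf. It fell into dome and shield, rose into bud and fell again. The last step was -1.20 (SE 0.21, adjusted p = 7.99e-05, edgeR). At 1-cell, palb2 was at 43.0 to 47.6 CPM in wild type and 54.0 to 54.7 CPM in mutants, without overlap and without a call (adjusted p = 0.253, edgeR).

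The gene of the helicase BRIP1, which works with BRCA1, was the only one of this group to fall from the 1-cell to the 256-cell stage in wild type, from 78.0 ± 4.03 CPM (SD, n = 4) to 54.1 ± 4.37 CPM (SD, n = 3), by 0.52 on the log2 scale (SE 0.14, adjusted p = 0.00529, edgeR). The joint fit of all groups gave 0.273 for it. The BRCA1 partner gene bard1 had 0 counts in all 3 wild-type shield libraries after 1.78, 5.59, 2.62 and 1.84 CPM at dome. Against a floor of 3 counts per library it was at least 6.71-fold lower at shield (adjusted p = 0.00197, edgeR). The gene passed the filter on low counts only through its dome libraries, so that test could only give a fall. In the shield mutants it was at 0.308, 2.99, 3.18 and 0.345 CPM, from 2, 17, 21 and 2 counts. Their mean was 3.88-fold above the wild-type floor of 0.440 CPM, but the libraries with 2 counts lay below that floor. The gene had no test at that stage in the planned fit. The gene bard1 lies on the same chromosome as rif1 in the RefSeq table of assembly GRCz12tu, as do fancb and xrcc5, which were not called between genotypes at any stage. Without a call, xrcc5 was lower in every mutant than in every wild type at 1-cell (69.0 to 85.3 against 93.6 to 112 CPM). The same held at 256-cell (125 to 136 against 139 to 173 CPM) and at shield (65.7 to 92.0 against 94.0 to 121 CPM). At dome, bud and 24 hpf its groups overlapped.

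The clearest difference between genotypes was in rad51c. Its product acts in homologous recombination, and the gene was at 24.9, 26.0, 34.7 and 25.8 CPM in the 1-cell wild types and 70.1, 74.7 and 75.9 CPM in the mutants. At the 256-cell stage it was at 24.3, 19.2 and 22.6 CPM against 43.3, 40.6 and 40.03 CPM. Every mutant library lay above every wild-type library at both stages. The log2 differences were 1.42 (SE 0.18, adjusted p = 0.000331, edgeR) and 0.90 (SE 0.20, adjusted p = 0.0025, edgeR). Both calls held without any 1 library, with an adjusted p of 0.000293 to 0.00308 and of 0.00502 to 0.0185, while the joint fit of all groups gave 0.229 for the second.

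From dome on the rad51c groups overlapped. At dome it was at 7.29 ± 1.73 CPM (SD, n = 4) in wild type and 5.23 ± 2.63 CPM (SD, n = 3) in mutants, with a log2 difference of -0.46 and a 95% interval of -1.53 to 0.61. At shield 3.44, 4.25 and 4.49 CPM stood against 17.8, 9.32, 5.31 and 4.14 CPM, with an edgeR adjusted p of 0.215. In wild type the gene had fallen from the 256-cell stage to dome by 1.59 on the log2 scale (SE 0.31, adjusted p = 0.000202, edgeR).

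**Figure D4:**
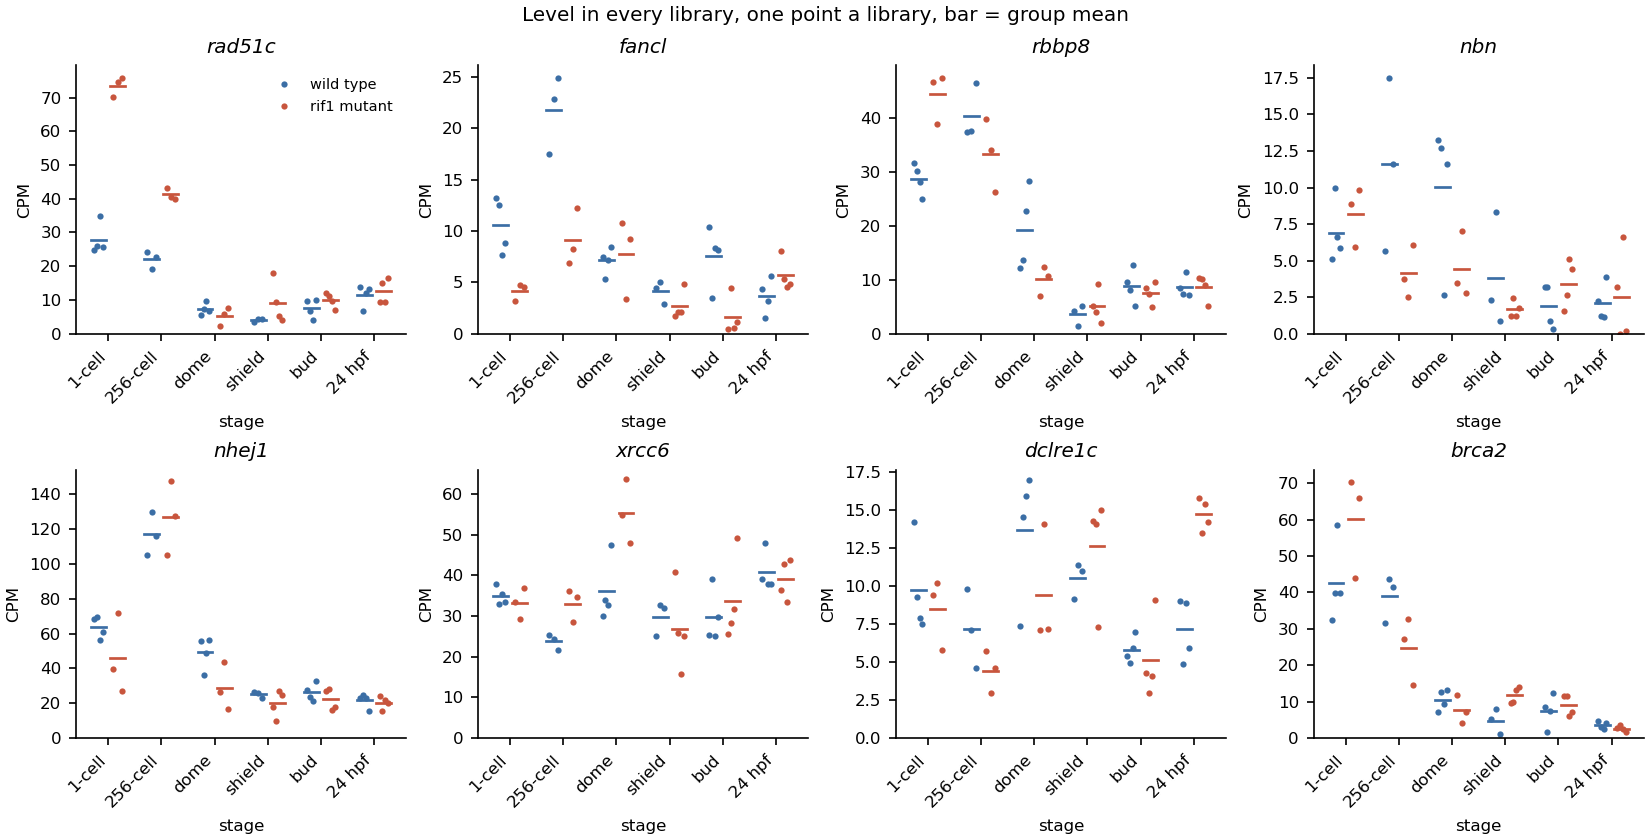
CPM (vertical axis, from 0) by stage for the 7 members called between genotypes at some stage and for brca2. For brca2 a change of the mutant difference between the first 2 stages was called at the threshold. Blue points are wild-type and red points mutant libraries, and bars are group means. The rad51c mutants lie between 70.1 and 75.9 CPM at the 1-cell stage, above all 4 wild types.

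In the fits of each stage, no genotype difference was called for rad51b, rad51d, xrcc2 or xrcc3, which also act in homologous recombination, while their levels changed between stages. The gene rad51b was at 76.8, 83.5, 80.1 and 88.2 CPM at dome in wild type, 11.9, 30.8 and 32.6 CPM at shield and 7.03, 6.69, 4.93 and 7.71 CPM at bud. Its fall from shield to bud was 1.98 on the log2 scale (SE 0.38, adjusted p = 0.000202, edgeR). Its rise into dome of 0.43 (SE 0.16, adjusted p = 0.0384, edgeR) was lost without wild-type 256-cell replicate 2 or 3 or dome replicate 2, 3 or 4 (adjusted p up to 0.245, log2 0.28 to 0.62), by library-total scaling and in the joint fit. In mutants rad51b was at 59.8, 72.1 and 61.9 CPM at dome, below every wild type, and at 9.23, 13.2, 6.37 and 18.6 CPM at shield, where the lowest wild type crossed over. The differences of -0.33 and -1.04 had edgeR adjusted p of 0.150 and 0.0955, and the shield difference was called without a filter (adjusted p = 0.0423) and in the joint fit (0.0259).

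The gene rad51d was at 3.19, 0.955, 2.38 and 0 CPM at bud and 6.32, 10.1, 11.1 and 11.9 CPM at 24 hpf in wild type, a rise of 2.55 on the log2 scale (SE 0.68, adjusted p = 0.00327, edgeR). The groups of the 2 stages did not overlap. The gene xrcc2 had 0 counts in the 3 wild-type shield libraries after 6.50, 7.83, 1.87 and 0.918 CPM at dome, at least 9.72-fold lower against a floor of 3 counts per library (adjusted p = 0.00103, edgeR). Its dome libraries spread widely, and of the fits without 1 library 4 of 7 tested the gene at all. As for bard1, the filter on low counts was passed only through dome, so that test could only give a fall. For xrcc3 the stage mean was highest at 256-cell, at 18.3 ± 10.3 CPM (SD, n = 3), and no genotype difference was called. Of the genes of later steps, rad54l, a motor that drives strand exchange, was among the 4 members whose wild-type stage means spanned less than 2-fold, from 16.8 to 33.4 CPM. The annealing factor gene rad52 stayed at or under 5.89 CPM as a stage mean.

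Genes of end resection, which commits a break to recombination, gave a call in each direction. The gene rbbp8 encodes CtIP, which starts resection with the MRE11 nuclease. At the 1-cell stage it was at 31.6, 30.2, 28.1 and 25.0 CPM in wild type and 46.7, 38.9 and 47.5 CPM in mutants, without overlap. The log2 difference was 0.65 (SE 0.19, adjusted p = 0.0396, edgeR). At the 256-cell stage the order was turned in the means, with 37.3, 37.6 and 46.4 CPM against 39.8, 34.0 and 26.3 CPM, and the groups overlapped. The mutant difference moved by -0.92 between these stages (SE 0.28, adjusted p = 0.0474, edgeR interaction term). At dome the wild types at 12.1, 13.7, 22.7 and 28.3 CPM and the mutants at 7.08, 12.4 and 10.8 CPM differed by -0.91 with an edgeR adjusted p of 0.0764. The 1-cell call and the interaction both depended on single libraries. The 1-cell call held only when mutant replicate 2 was left out (log2 0.57 to 0.74, adjusted p 0.0348 to 0.135 over the 7 fits without 1 library). The interaction was lost in 11 of 13 such fits, all but those without mutant 1-cell replicate 2 or mutant 256-cell replicate 1 (log2 -1.09 to -0.79, adjusted p 0.0306 to 0.145). Both were also lost in the joint fit and with the replicate number as a block, and the interaction without a filter as well.

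The MRE11-RAD50-NBN complex senses the break and makes the first cut. Its gene nbn was at 5.64, 17.5 and 11.6 CPM in the 256-cell wild types and 3.74, 2.53 and 6.09 CPM in the mutants, which overlapped by 1 library. The log2 difference was -1.50 (SE 0.45, adjusted p = 0.0275, edgeR). It was lost without wild-type replicate 2 or 3 or mutant replicate 1 or 2, with a log2 difference of -1.88 to -1.08 and an adjusted p of up to 0.237. At dome nbn was at 13.2, 12.7, 2.62 and 11.6 CPM against 3.47, 7.05 and 2.79 CPM (adjusted p = 0.144, edgeR).

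The gene mre11a was steadier, at 31.5 ± 1.70 CPM (SD, n = 4) in the 1-cell wild types and 26.6 ± 2.15 CPM (SD, n = 3) in the mutants. At the 256-cell stage it was at 32.9, 32.8 and 32.6 CPM against 25.2, 25.4 and 28.9 CPM, without overlap, and the difference of -0.31 had an edgeR adjusted p of 0.365. In wild type it fell from shield to bud by 1.33 on the log2 scale (SE 0.30, adjusted p = 0.000983, edgeR). The gene rad50 was low throughout, and at 24 hpf it was at 1.69, 1.83, 0.287 and 0.828 CPM in wild type and had 0 counts in all 4 mutants. The wild-type mean was 2.44-fold above a floor of 3 counts per library in the mutants (0.474 CPM). Wild-type replicate 3, with 2 counts, lay below that floor. The gene had no test at 24 hpf.

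In wild type the resection genes changed in steps between stages, and rbbp8 fell from dome to shield by 2.38 on the log2 scale. The gene of BLM, a helicase that extends resection and dissolves joined strands, was at 18.3, 31.9, 39.04 and 22.7 CPM at the 1-cell stage, 54.8, 70.3 and 68.9 CPM at the 256-cell stage and 8.41, 11.1, 13.0 and 8.03 CPM at dome. The rise was 1.22 (SE 0.22, adjusted p = 0.000177, edgeR) and the fall 2.68 on the log2 scale (SE 0.23, adjusted p = 2.01e-09, edgeR), a 6.39-fold drop within hours. Mutant blm followed at 38.9, 35.1 and 31.1 CPM, then 75.7, 61.0 and 55.4 CPM, then 7.49, 5.52 and 13.1 CPM, overlapping wild type at each stage. The nuclease gene exo1 rose to 87.6 ± 7.91 CPM (SD, n = 3) at the 256-cell stage and fell by 0.97 into dome and 1.88 into shield on the log2 scale. In the shield libraries exo1 was at 10.0, 8.20 and 17.2 CPM in wild type and 24.1, 17.8, 19.7 and 20.9 CPM in mutants, without overlap (adjusted p = 0.122, edgeR).

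**Figure D5:**
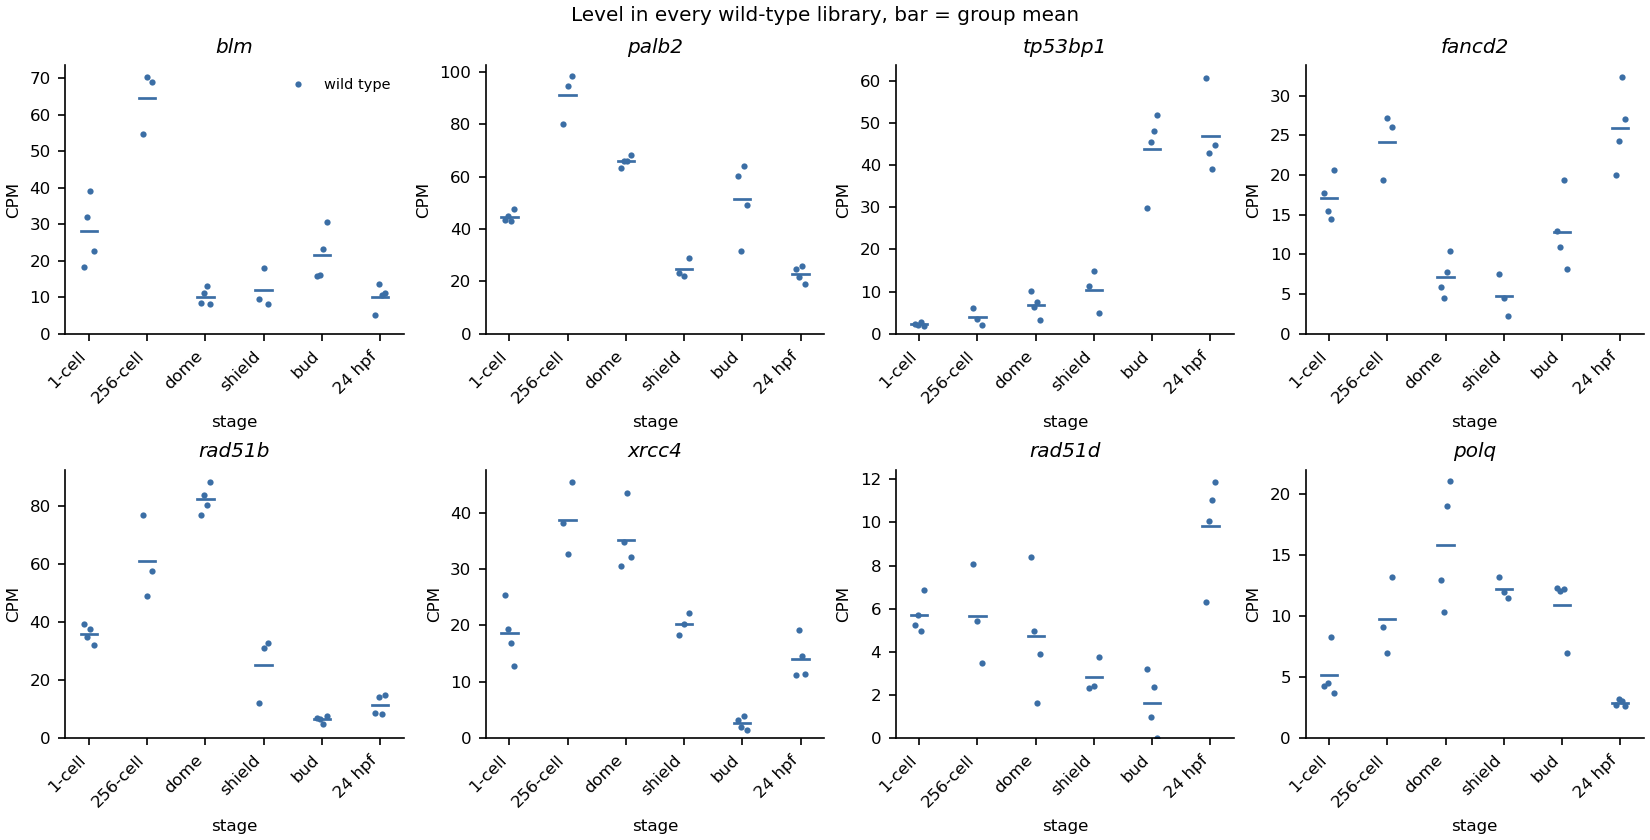
CPM (vertical axis, from 0) by stage in the wild-type libraries for 8 members whose level changed at some step, with 1 point per library and a bar at the group mean. The blm points drop from 54.8 to 70.3 CPM at the 256-cell stage to 8.03 to 13.0 CPM at dome, and the tp53bp1 points rise from shield to bud.

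On the side that keeps ends from being trimmed stands 53BP1, through which RIF1 is recruited to breaks in mammalian cells. Its gene tp53bp1 was at 2.30, 2.12, 2.83 and 1.86 CPM at the 1-cell stage, 11.3, 14.9 and 4.93 CPM at shield, 29.7, 45.5, 48.1 and 52.0 CPM at bud and 60.7, 42.8, 39.1 and 44.8 CPM at 24 hpf in wild type. The step from shield to bud was 2.02 on the log2 scale (SE 0.33, adjusted p = 3.49e-05, edgeR). Mutants were at 10.6, 25.3, 11.5 and 21.05 CPM at shield and 57.6, 44.4, 63.0 and 64.8 CPM at bud, overlapping wild type at both. No genotype difference of tp53bp1 was called: at bud it was 0.36 with a 95% interval of -0.04 to 0.76, and at 24 hpf -0.11 with an interval of -0.44 to 0.23. The gene polq, of the polymerase that joins resected ends through short homologies, fell from 12.3, 12.1, 12.2 and 6.99 CPM at bud to 2.67, 3.20, 3.02 and 2.62 CPM at 24 hpf, by 1.96 on the log2 scale (SE 0.41, adjusted p = 0.000405, edgeR). Bud mutants were at 5.22, 7.28, 5.65 and 1.61 CPM, overlapping wild type by 1 library, with a difference of -1.16 (SE 0.45, adjusted p = 0.148, edgeR).

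Of the 7 genes of classical end joining, 1 was higher and 1 lower in mutants at dome, and 1 was higher at 24 hpf. The gene xrcc6, which encodes the Ku70 subunit of the dimer that caps the ends, was at 30.1, 34.0, 32.8 and 47.5 CPM in the dome wild types and 54.8, 63.6 and 47.9 CPM in the mutants. The groups just failed to overlap, and the log2 difference was 0.63 (SE 0.20, adjusted p = 0.0316, edgeR). It was lost without wild-type replicate 1, 2 or 3 or mutant replicate 1 or 2 (log2 0.51 to 0.79, adjusted p up to 0.164). In wild type xrcc6 fell by 0.54 from the 1-cell to the 256-cell stage and rose by 0.60 from there to dome. The fall was lost without wild-type 256-cell replicate 3 (adjusted p = 0.0705), the rise without any of the 3 wild-type 256-cell libraries or dome replicate 4 (adjusted p up to 0.126), and both by library-total scaling. Both were also lost in the joint fit, and the rise without a filter and with the replicate number as a block.

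Its dimer partner gene xrcc5, for Ku80, was at 173, 146 and 139 CPM at the 256-cell stage and 88.5, 85.6, 82.0 and 91.2 CPM at dome in wild type. Chosen after the values were seen, and so with no test, the ratio of xrcc5 to xrcc6 within a library was 5.99 to 6.85 in the 256-cell wild types and 3.46 to 4.61 in the mutants. At dome it was 1.92 to 2.94 and 1.19 to 2.14, and at bud 3.49 to 6.06 and 3.39 to 5.86. The ratio does not depend on library scaling, and the groups were apart at the 256-cell stage and overlapped at dome and bud. Reads per transcript end need not be equal between genes, so only its change between libraries can be read.

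The gene nhej1 encodes XLF, which bridges the ends for ligation. At dome it was at 55.8, 36.3, 48.6 and 56.3 CPM in wild type and 26.2, 43.6 and 16.5 CPM in mutants, overlapping by 1 library of each group. The log2 difference was -0.77 (SE 0.26, adjusted p = 0.0418, edgeR). It was lost without wild-type replicate 1, 3 or 4 or mutant replicate 1 or 3 (log2 -1.21 to -0.49, adjusted p up to 0.231). The joint fit and the fit with the replicate number as a block lost it as well. In wild type nhej1 fell from 117 ± 12.3 CPM (SD, n = 3) at the 256-cell stage into dome, by 1.25 on the log2 scale (SE 0.16, adjusted p = 1.39e-06, edgeR). Any part of this fall in the dome difference was not tested.

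The gene dclre1c encodes Artemis, the nuclease that opens hairpins and trims ends before ligation. At 24 hpf it was at 9.00, 4.88, 8.91 and 5.93 CPM in wild type and 15.8, 13.5, 15.4 and 14.2 CPM in mutants. Every mutant lay above every wild type, and the log2 difference was 1.05 (SE 0.31, adjusted p = 0.0242, edgeR). The call was lost without wild-type replicate 2 or 4 or mutant replicate 1 or 3 (log2 0.91 to 1.18, adjusted p up to 0.0942). At the 5 earlier stages its difference was not called, and the mutant mean was below wild type at 1-cell, 256-cell, dome and bud.

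The remaining end joining genes were not called between genotypes. The gene xrcc4, whose product holds ligase IV, was at 18.4, 20.2 and 22.2 CPM at shield, 3.19, 1.91, 3.91 and 1.46 CPM at bud and 11.2, 19.2, 14.5 and 11.3 CPM at 24 hpf in wild type. It fell by 3.01 on the log2 scale (SE 0.43, adjusted p = 7.75e-06, edgeR) and rose by 2.38 (SE 0.42, adjusted p = 7.72e-05, edgeR). Bud was thus a trough, and mutants shared it at 6.14, 1.12, 0.565 and 5.13 CPM. The ligase gene lig4 stayed at or under 3.32 CPM as a stage mean in wild type, and the kinase gene prkdc between 5.36 and 9.71 CPM, with no call for either.

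The change of the mutant difference between neighbouring stages was tested for each member. From 1-cell to 256-cell 2 of 34 members were called, brca2 and rbbp8, where 6.88% of all genes were. From 256-cell to dome edgeR called 0 of 34 beside 6.94% of all genes (4 at an unadjusted p under 0.05, 0 by DESeq2), and from dome to shield 0 of 33 beside 6.83% (5 and 2). From shield to bud it called 0 of 33 beside 2.66% (4 and 0), and from bud to 24 hpf 0 of 33 beside 2.91% (3 and 1). Over all genes, 20.2%, 19.8%, 14.5% and 15.3% had an unadjusted p under 0.05 from 256-cell to dome and in the later steps, in that order. The loss of the rad51c difference between the 256-cell stage and dome was thus not called, although a fit scaled by library totals gave -1.45 with an adjusted p of 0.0455.

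A second list held 52 genes that work beside the members, of which 48 were used. Between genotypes 6 of 44 tested were called at 1-cell, 4 of 43 at 256-cell, 9 of 42 at dome, 4 of 41 at shield, 2 of 41 at bud and 3 of 42 at 24 hpf, to be read against the all-gene shares of calls given above. Of those called, the higher in mutants were 2, 1, 4, 3, 0 and 1 and the lower 4, 3, 5, 1, 2 and 2. Values follow for those called with a log2 difference of at least 1 in size. At the 1-cell stage atm, the kinase that signals breaks, was at 18.3 to 40.1 CPM in wild type and 6.85 to 18.1 CPM in mutants (log2 -1.43, SE 0.36, adjusted p = 0.0212, edgeR). The gene of the histone H2AX, which marks the chromatin around a break, was higher in mutants at the 1-cell stage and lower at shield and bud. Its log2 differences there were 1.16 (SE 0.33, adjusted p = 0.0392, edgeR), -1.03 (SE 0.28, adjusted p = 0.0207, edgeR) and -1.15 (SE 0.33, adjusted p = 0.0421, edgeR). Its genotype ranges were apart at 1-cell and bud and overlapped at shield.

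Dome held 3 such genes. The nuclease gene ercc4, which cuts beside crosslinks, was at 50.7 to 62.5 CPM in wild type and 14.7 to 25.7 CPM in mutants (log2 -1.34, SE 0.23, adjusted p = 0.000118, edgeR). The gene rev3l, for the catalytic subunit of the lesion-bypassing polymerase zeta, was at 16.9 to 26.5 CPM against 42.0 to 55.7 CPM (log2 1.20, SE 0.24, adjusted p = 0.000608, edgeR). The gene of its partner subunit REV7, mad2l2, which shieldin also uses beside 53BP1 and RIF1, is named here after its values were seen. It was at 35.8 to 43.4 CPM in wild type and 73.2 to 80.8 CPM in mutants (log2 0.96, SE 0.17, adjusted p = 0.000221, edgeR). That size is under 1, as for the other dome calls: polm (log2 -0.996), rfwd3 (0.91), fan1 (-0.78), fignl1 (-0.76) and sfr1 (-0.75). At the other stages mad2l2 was not called, at log2 -0.62 (1-cell), -0.36 (256-cell), -0.45 (shield), -0.09 (bud) and 0.10 (24 hpf). The break sensor gene parp1 was higher in dome mutants by 1.03 on the log2 scale (SE 0.22, adjusted p = 0.00172, edgeR). At shield lig3, the ligase gene of single-strand break repair, was at 3.59 to 5.01 CPM in wild type and 8.26 to 19.6 CPM in mutants (log2 1.84, SE 0.46, adjusted p = 0.0121, edgeR). At bud swi5, a gene of homologous recombination, was at 12.9 to 20.5 CPM against 0.283 to 6.16 CPM (log2 -2.13, SE 0.51, adjusted p = 0.0164, edgeR). At 24 hpf rad51ap1, also of homologous recombination, was at 3.94 to 7.31 CPM against 8.81 to 17.4 CPM (log2 1.31, SE 0.34, adjusted p = 0.00898, edgeR). The ranges printed for these genes did not overlap between genotypes.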

How the data were processed

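Read counts per gene were deposited by the authors for 43 libraries as raw counts, made with STAR and HTSeq on the GRCz11 genome per the submitters' processing notes; tool versions and the annotation release are not given in the sources used here. Libraries were QuantSeq 3′ libraries read with 75 bp single-end reads, per the labels' protocols, so that a count is 1 read at a transcript end. Genes were named for 28877 identifiers. Members and lists were chosen with earlier results of these data known, and no list was tested as a set. Each comparison was fitted on its own libraries across all genes with edgeR 4.0.16 in R 4.3.3 (limma 3.58.1; filterByExpr, TMM scaling, robust quasi-likelihood test), with Benjamini-Hochberg adjustment over all genes tested and a threshold of 0.05. Intervals are 95% and use the fit's degrees of freedom. CPM use 1 TMM scaling over all 43 libraries, so ratios of mean CPM differ slightly from fitted folds. Folds against groups at 0 use a floor of 3 counts per library, which covers counting error only. The 2 largest called rises and falls of each wild-type step are given, some of them only as group means or log2 changes. Values in every library are given for the members called between genotypes, for called interactions, and for others outside these rules. Among those others are uncalled members picked with their values in view, whose genotype groups did not overlap or nearly so. Groups did not overlap for 7 of 33 tested members at 1-cell, 10 of 33 at 256-cell and 2 of 33 at dome. At shield this held for 6 of 31, at bud for 0 of 28 and at 24 hpf for 3 of 29. The share over all genes is not given here, so a lack of overlap is no test. Alternatives were DESeq2 1.42.0, other scalings, no filter, a joint fit of all 12 groups, a replicate block and leaving out each library. No 2 replicates agreed within sampling noise (chi-square per gene at least 7.60 over 57 pairs). The scripts were tested on simulated counts.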

Additional observations from a re-analysis of the deposited data

Results flagged for a closer look

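In 10 of 211 sets of 4 libraries (1 member in 1 group), 1 library stood apart from the other 3 by Dixon's 95% criterion, which chance alone meets in about 1 of 20 groups. In wild type these were rad51c in 1-cell replicate 3 at 34.7 CPM, nbn in dome replicate 3 at 2.62 CPM, polq in bud replicate 4 at 6.99 CPM, nhej1 in 24 hpf replicate 4 at 15.5 CPM and xrcc6 in 24 hpf replicate 2 at 47.9 CPM. In mutants they were xrcc5 in shield replicate 1 at 65.7 CPM, dclre1c in shield replicate 3 at 7.28 CPM, fancl in shield replicate 4 at 4.83 CPM, and blm at 15.0 CPM and fanci at 16.7 CPM, both in bud replicate 3.

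The high rad51c wild type lay on the side of the mutants, and the 1-cell call held without that library.

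A change of the mutant difference between the 1-cell and the 256-cell stage was called for brca2, by -1.16 on the log2 scale, and for rbbp8, by -0.92, both by an interaction term in edgeR. Both calls lay near the threshold and were lost in 9 and 11 of 13 fits without 1 library.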

How the results depend on the processing

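No named result reversed its direction under any alternative tried. Of 388 checks of a named gene under an alternative, 300 kept their side of the threshold and 88 lost it. Apart from leaving out libraries, the numbers of members called moved over 1.5 times in the most comparisons with a joint fit of all 12 groups, which pools the spread over stages. Between genotypes it called 1 at 1-cell, 0 at 256-cell, 0 at dome, 2 at shield, 1 at bud and 0 at 24 hpf. It called 9 from 1-cell to 256-cell, 11 from 256-cell to dome and 12 from shield to bud in wild type, and 0 for the change of the mutant difference from 1-cell to 256-cell. Over all genes that fit called 725 at 256-cell in place of 1499 and 261 at 24 hpf in place of 1082, and for the change of the mutant difference 589 from 256-cell to dome in place of 904 and 180 from bud to 24 hpf in place of 398. Other counts over all genes that moved over 1.5 times were 1858 by DESeq2 at 1-cell in place of 1232, 361 with the replicate block at bud in place of 584, and, for the change of the mutant difference, 558 by DESeq2 from shield to bud in place of 338 and 626 by DESeq2 and 663 without a filter from bud to 24 hpf. Leaving out 1 library lowered such counts to 466 at 1-cell, 606 at shield (1049 with all), 360 at bud, and for the change of the mutant difference 502 (898 with all), 211 and 265 in the first and the last 2 steps. The fit without a filter on low counts called 5 members at 1-cell, 5 at 256-cell, 1 at shield and 1 at bud. For the change of the mutant difference it called 1 from 1-cell to 256-cell, 1 from 256-cell to dome and 1 from bud to 24 hpf. DESeq2 called 1 at bud and 2 at 24 hpf, and for the change of the mutant difference 2 from dome to shield and 1 from bud to 24 hpf. Scaling by library totals called 1 from 1-cell to 256-cell and 1 from 256-cell to dome for that change.

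Leaving out 1 library gave 1 to 6 members at 1-cell, 2 to 4 at 256-cell, 0 to 1 at dome, shield, bud and 24 hpf. In wild type it gave 12 to 19, 13 to 17, 13 to 16, 6 to 8 and 6 to 10 over the 5 steps. For the change of the mutant difference it gave 0 to 4, 0 to 2, 0 to 1, 0 to 0 and 0 to 1. The 6 at 1-cell came without mutant replicate 2, and 1 was called without mutant replicate 1 or wild-type replicate 1, 2 or 4. At dome 0 were called without mutant replicate 1 and 1 without each other library, which was rbbp8 without wild-type replicate 1, nbn without wild-type replicate 3, and xrcc6 or nhej1 otherwise, and at 24 hpf 0 were called without mutant replicate 1 or 3 or wild-type replicate 2 or 4.

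With the replicate number as a block, 1 member was called at dome and 0 for the change from 1-cell to 256-cell. The numbers were not shown to pair libraries: the deviations of same-numbered libraries correlated at -0.16 to 0.109 over 20 pairs, 1 of them over 0.1, and 5 of 22 wild-type libraries correlated best with their own number. Why these counts moved was not tested. The members' intervals were widest at shield, and members with few counts had no test at some stages.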
